A study of Homo sapiens with 6 samples.

Results

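Strong A domains lost in DKO1 are topologically associating domains of HCT116 that lay deep in the open compartment of the genome and were not listed in DKO1. They were chosen from the HCT116 domains of chromosomes 1 to 22 with a length of 2 Mb or less, a mean PC1 above 1 in the HCT116 track and less than 20% of their length covered by any DKO1 domain. Of the 4289 HCT116 domains in the series, 4069 met the chromosome and length criteria, 1163 of these were strong A domains, and 452 of the strong A domains were lost. The comparison group was the 593 strong A domains that had a DKO1 partner with at least 80% reciprocal overlap, called matched here. The remaining 118 strong A domains were partly covered by DKO1 domains and belong to neither group.

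DKO1 is a derivative of HCT116, an established human colorectal cancer line, that carries knockouts of DNMT1 and DNMT3B, which encode DNA methyltransferases, and HCT116 with neither knockout was its control. Both lines were grown in McCoy's 5A medium with foetal bovine serum. Hi-C, which ligates and sequences DNA ends that lie close together in cross-linked chromatin, was carried out on 3 libraries per line, 6 in all. DKO1 enters as 1 derived line, so that effects of the genotype and of the line cannot be told apart.

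DNMT1 copies DNA methylation onto newly made strands and DNMT3B adds it to unmethylated sites, and cells that lack both lose most of this mark. Mammalian chromosomes fold at more than 1 scale. Compartment A holds gene-rich, transcribed and early replicating chromatin and compartment B holds gene-poor chromatin that often lies at the nuclear lamina. Topologically associating domains are shorter stretches whose DNA contacts itself more than its surroundings, and their borders are commonly occupied by CTCF and cohesin. A domain and a compartment are measured on different features of the contact map, so a stretch can keep its compartment and have no domain called in it.

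Each line was represented by 1 compartment track and 1 list of domains, which the labels of all 3 of its libraries name, so that the libraries were taken as pooled. The values therefore have no replicate error, and no test between the lines was possible. The tracks held 133142 bins of 20 kb in DKO1 and 133078 in HCT116 on the autosomes. The lists held 1823 domains in DKO1 and 4289 in HCT116, all on a 40 kb grid. PC1, the first principal component of the contact map, is positive in A and negative in B. It was deposited with a mean of 0 and an SD of 1 on each autosome, so a PC1 of 1 means 1 SD above the average of that chromosome. Depth is unknown, and a domain that is not listed may be one that the caller did not find at the depth of the map.

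The choice used the HCT116 list, the HCT116 track and the DKO1 list, and the following values describe it. The lost domains made up 38.9% of the strong A domains, while the same cover limit was met by 56.4% of all 4057 HCT116 domains with PC1 in both tracks. No DKO1 domain overlapped 417 of the 452, and the other 35 were covered over at most 16.7% of their length. Together the lost domains spanned 119.92 Mb and the matched domains 162.4 Mb, counting overlapping domains separately, and 20 of the lost domains overlapped another lost one. The median HCT116 PC1 was 1.21 for lost domains (quartiles 1.10 and 1.37, highest 1.92) and 1.24 for matched domains (quartiles 1.12 and 1.4, highest 1.99). Lost domains were thus slightly weaker to begin with, and the comparisons below were also made within classes of HCT116 PC1.

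The members nearest the PC1 minimum were at 73680001 to 73960000 of chromosome 11, 4320001 to 4600000 of chromosome 17 and 126440001 to 126720000 of chromosome 8, each with a PC1 of 1.00 (hg19 positions here and below). Just outside it lay uncovered domains at 80360001 of chromosome 17, 58320001 of chromosome 3 and 76680001 of chromosome 7, with values of 0.9974, 0.9966 and 0.9966. At the cover limit, the members at 121680001 of chromosome 12, 42560001 of chromosome 3 and 226560001 of chromosome 1 had 16.7% of their length covered. The domains at 280001 of chromosome 5, 11560001 of chromosome 2 and 105800001 of chromosome 14 had 20% covered and were left out.

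The lost domains stayed in compartment A. Their mean PC1 in DKO1, which the rule did not use, had a median of 1.29 (quartiles 1.03 and 1.5), against 1.21 in HCT116. In DKO1 450 of the 452 kept a positive mean, and 355 (78.5%) were still above 1, against 523 of 593 matched domains (88.2%). That difference was -9.66 percentage points (-14.3 to -5.12). Any bin below 0 was found in 10 lost (2.21%) and 11 matched domains (1.85%). Of strong A domains of every state, 1.98% had such a bin and 84.0% a DKO1 mean above 1. Of all 4057 domains, 44.5% had such a bin and 31.8% a DKO1 mean above 1. Those were not chosen above 1 in HCT116, so they are not a like group. The mean changed sign in 2 lost domains, or 0.442% (Wilson 95% interval 0.121 to 1.6), and in 0 of the 593 matched domains, with a Wilson upper limit of 0.644%. Over all 2760 HCT116 domains with positive PC1 this share was 8.04%. That set reaches down to a PC1 of 0, so its share is not a like comparison for domains chosen above 1. Over all 1163 strong A domains the share was 0.172%. For PC1 of 0 to 1 it was 19.8% of 820 lost and 6.97% of 646 matched domains.

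**Figure D1:**
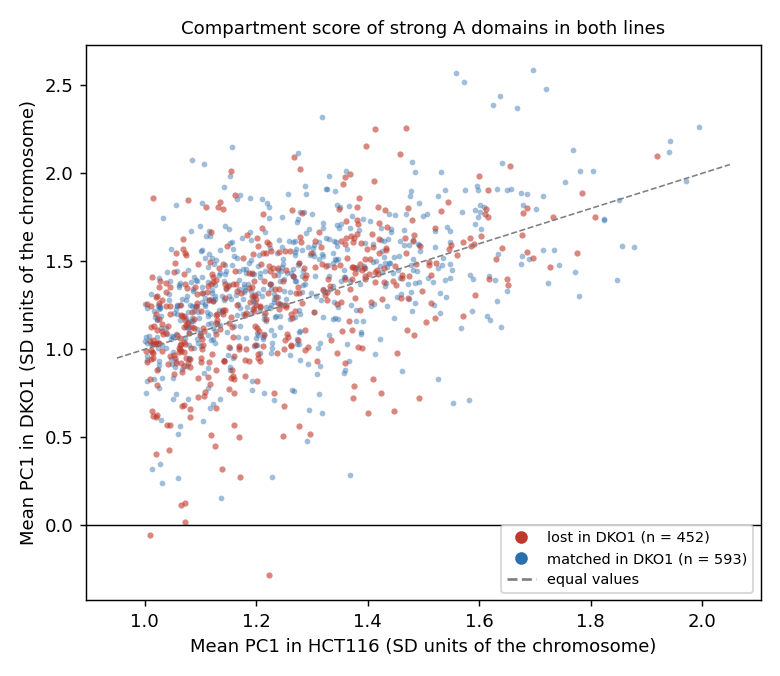
Mean PC1 of each strong A domain in DKO1 (vertical axis) against HCT116 (horizontal axis), both in SD units of the chromosome, for 452 lost and 593 matched domains, with 1 point per domain. Both clouds lie around the dashed line of equal values, and only 2 points, both lost domains, lie below 0 in DKO1.

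Relative to matched domains, lost domains were lower in DKO1 by a small amount. The median DKO1 PC1 was 1.29 for lost and 1.36 for matched domains, a difference of -0.074 (-0.12 to -0.017). These intervals, like all those beside medians and differences, take domains as independent, which neighbours are not, and cover neither library nor calling error. The change of PC1, DKO1 minus HCT116, had a median of 0.035 in lost domains (quartiles -0.14 and 0.21) and 0.095 in matched domains (quartiles -0.10 and 0.26). The difference in medians of -0.061 (-0.11 to -0.026) is small beside the SD among lost domains, which was 0.32. PC1 was higher in DKO1 in 56.9% of lost and 65.4% of matched domains, beside 59.8% of all domains. With the chromosome median subtracted from each track these shares were 67.3%, 74.0% and 71.4%.

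This level depends on where 0 lies in each track. On the centred scale, the median change of all domains was 0.20, which is 0.12 above its value on the deposited scale, and that of the same lost and matched domains was 0.14 and 0.20. Relative to all domains, the change of lost domains was thus negative on both scales. All domains were not chosen by a high HCT116 PC1, and such a choice can by itself lower the change. Matched domains, which met the same PC1 minimum, are the like group. When the strong A domains were chosen anew on the centred scale, 317 were lost and 431 matched, and their difference in DKO1 PC1 was -0.051 with an interval of -0.13 to 0.014, which includes 0. The difference in change was -0.060 (-0.12 to -0.0071).

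The lower DKO1 values of lost domains were seen in the weakest class of strong A, and in the strongest with an interval that includes 0. Among domains with an HCT116 PC1 of 1 to 1.2, the median DKO1 PC1 was 1.12 for the 218 lost and 1.23 for the 247 matched domains, a difference of -0.11 (-0.18 to -0.048). Of the 19 chromosomes with at least 5 of each kind in this class, 14 had the lower median in lost domains. From 1.2 to 1.4 the 143 lost and 197 matched domains both had 1.4, and from 1.4 to 1.6 the 69 lost and 100 matched domains had 1.49 and 1.5. Above 1.6 the 22 lost domains had 1.70 and the 49 matched 1.8, a difference of -0.098 with an interval of -0.30 to 0.15. For A domains below the strong A minimum, the difference in median change, lost minus matched, was -0.12 at PC1 of 0.5 to 1 and -0.18 at 0 to 0.5. Among all strong A domains it was -0.061, so a lower value in lost domains was not particular to strong A. Whether the classes differ from each other was not tested.

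The number of large changes of PC1 depended on the scale. On the deposited scale a fall by more than 0.5 was found in 24 lost domains (5.31%) and 20 matched domains (3.37%), beside 7.69% of all domains. A gain by more than 0.5 was found in 23 lost (5.09%) and 44 matched domains (7.42%), beside 13.7% of all domains. With the chromosome median subtracted, falls were found in 22 lost (4.87%) and 14 matched domains (2.36%), beside 4.83% of all domains. Gains on that scale were found in 61 lost (13.5%) and 117 matched domains (19.7%), beside 23.9% of all domains, so that the near balance of falls and gains in lost domains held only for the deposited scale. Chromosomes 6 and 9 held 5 each of the 24 falls on the deposited scale. Of the 20 falls in matched domains they held 4 and 1, so falls on chromosome 6 were found in both groups. Chromosome 5 held 7 of the 23 gains in lost domains and 15 of the 44 in matched domains, so both groups had gains there.

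The largest fall was that of a 280 kb domain at 89120001 to 89400000 of chromosome 12. There PC1 averaged -0.28 in DKO1, against 1.22 in HCT116, and 78.6% of its bins were below 0 in DKO1. It was isolated in HCT116, with the next domain 1920 kb away and B bins 80 kb away, and in DKO1 it lay in a stretch of 16600 kb without domains. The other domain that changed sign, at 21840001 to 22120000 of chromosome 7, had -0.058 in DKO1 and 1.01 in HCT116. Unlike the first it lay 1740 kb from B in HCT116 and touched another domain. The next falls took the mean close to 0 without crossing it. They were at 179520001 to 179760000 of chromosome 5, with 0.019 in DKO1 and 1.07 in HCT116, and at 114840001 and 27000001 of chromosome 9, with 0.11 and 0.13 in DKO1 against 1.06 and 1.07 in HCT116.

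At the other extreme, some lost domains had a PC1 above 2 in DKO1. The domain at 138920001 to 139160000 of chromosome 5 had a PC1 of 2.26 in DKO1 and 1.47 in HCT116. A 160 kb domain at 133480001 of the same chromosome had 2.25 in DKO1, against 1.41 in HCT116. The largest gain, 0.86, was at 23120001 to 23320000 of chromosome 8, with 2.02 in DKO1 and 1.15 in HCT116. The domains at 149840001 of chromosome 5 and 95680001 of chromosome 9 gained 0.84 and 0.83. A domain was therefore not listed in DKO1 at places where the compartment score was higher than in HCT116 on the deposited scale. On chromosome 5 the median change was 0.26 for lost and 0.50 for matched strong A domains, and on chromosome 8 it was 0.28 and 0.30. Both groups thus rose on these 2 chromosomes, so the gains there were not particular to the named places. On chromosome 9 the medians were -0.085 and 0.11.

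The surroundings of lost domains differed from those of matched domains in DKO1. The mean PC1 of the 200 kb on each side had a median of 1.12 in DKO1 around lost domains and 1.27 around matched domains, a difference of -0.15 (-0.20 to -0.092). In HCT116 the same flanks had 1.12 and 1.15, a difference of -0.036 with an interval of -0.081 to 0.0012. The flanks changed between the lines by a median of -0.00099 around lost and 0.082 around matched domains, a difference of -0.083 (-0.11 to -0.036), and the value was lower around lost domains on 15 of 22 chromosomes. In the class of HCT116 PC1 from 1 to 1.2 this difference was -0.099 (-0.14 to -0.040), and it was negative with intervals that include 0 in the other classes.

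**Figure D2:**
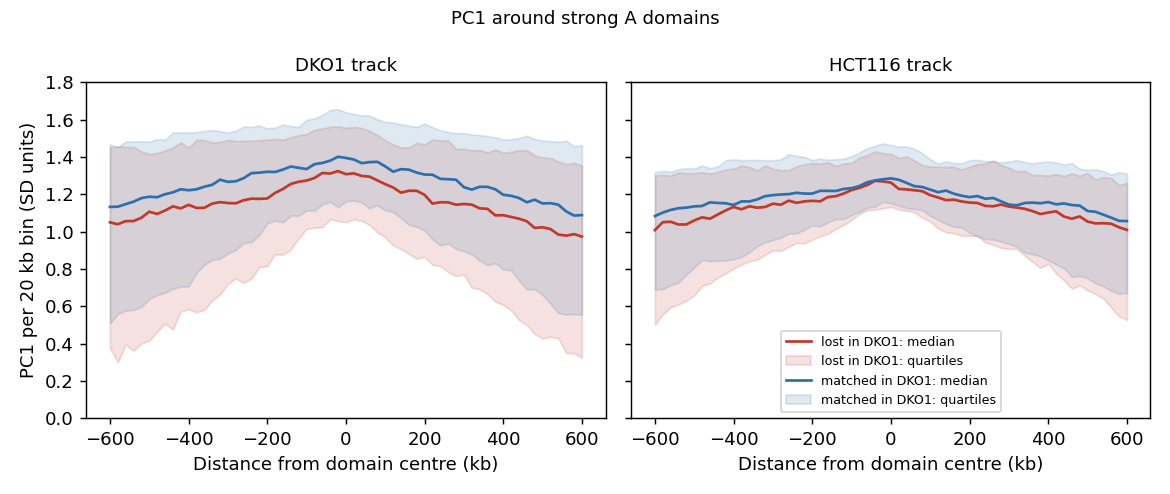
PC1 per 20 kb bin against distance from the domain centre, from -600 to 600 kb, in the DKO1 track (left) and the HCT116 track (right), with lines for the median and bands for the quartiles over lost and matched domains. In DKO1 the medians at the centre are 1.31 for lost and 1.39 for matched domains, and 1.05 and 1.13 at -600 kb. In HCT116 the centre values are 1.26 and 1.29, and those at -600 kb are 1.01 and 1.08.

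Lost domains were local maxima of PC1 about as often as matched domains. In DKO1 325 lost domains (71.9%) and 67.3% of matched domains had a higher PC1 than their flanks, and in HCT116 the shares were 74.8% and 70.8%. The SD of PC1 over the bins of a domain had a median of 0.163 in lost and 0.147 in matched domains in the DKO1 track, a difference of 0.0165 (0.0041 to 0.027). In the HCT116 track the medians were 0.118 and 0.109, with an interval of the difference that includes 0. A missing bin within the domain or 200 kb of it was found for 1.33% of lost and 1.69% of matched domains.

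Lost domains were nearer to compartment B than matched domains, and this was seen in the weakest class of strong A. The median distance to the nearest HCT116 bin below 0 was 780 kb for lost domains (quartiles 395 and 1480) and 940 kb for matched domains (480 and 1560). In the DKO1 track the distances were 620 kb and 720 kb, and 22.6% of lost against 14.0% of matched domains had B bins within 200 kb there, a difference of 8.57 percentage points (3.86 to 13.4). In HCT116 those shares were 11.9% and 9.44%, and the interval of the difference, -1.24 to 6.43 percentage points, includes 0. Of all strong A domains 17.3% in DKO1 and 10.3% in HCT116 had B bins that near. Of all domains, which include those in B, 59.6% and 54.3% did. Among domains with an HCT116 PC1 of 1 to 1.2 the distances in HCT116 were 560 kb for lost and 940 kb for matched domains, a difference of -380 kb (-532 to -196), and lost domains were nearer on 13 of 19 chromosomes. The ratio of the median distances, lost over matched, was 0.83 overall and 0.90 (0.74 to 1.13) with strong A domains chosen on the centred scale. From 1.2 to 1.4 the distances were 840 and 920 kb, and in the classes above that lost domains were the farther ones, at 1180 against 900 kb and 1350 against 1040 kb, with intervals of both differences that include 0. In weaker A domains (PC1 of 0 to 1) the median distances were 120 kb for 820 lost and 350 kb for 646 matched domains. Their median HCT116 PC1 also differed, at 0.57 and 0.74.

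By distance, the lost share of strong A domains was 45.7% at less than 200 kb from B (36.5 to 55.2, of 105 domains), 44.3% from 200 to 500 kb, 37.6% from 500 to 1000 kb, 33.2% from 1000 to 2000 kb (28.5 to 38.3) and 41.4% beyond 2000 kb (34.1 to 49.1, of 162). The share did not fall steadily, and the intervals of the nearest and the farthest class overlap. The A interval around the domain had a median length of 2730 kb in DKO1 and 3690 kb in HCT116 for lost domains, against 3240 and 3860 kb for matched domains.

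The lost domains farthest from B show that loss reached the interior of long A intervals. The farthest, at 22000001 to 22360000 of chromosome 1, lay 6280 kb from B in HCT116 and 2800 kb in DKO1, inside an A interval of 14080 kb in HCT116. Its PC1 was 1.38 in DKO1 and 1.12 in HCT116, and it was flanked by matched domains. The domains at 23600001 and 24040001 of chromosome 1 lay 5960 and 5520 kb from B in the same interval, also between matched domains. On chromosome 3 the domains at 47560001 and 47040001 lay 5580 and 5200 kb from B, with PC1 of 1.62 and 1.66 in DKO1, against 1.31 and 1.41 in HCT116. All 5 had a higher PC1 in DKO1, in the deposited scale.

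Members that bordered B directly were few. A domain at 3440001 to 3720000 of chromosome 2 touched B bins in HCT116 in an A interval of 540 kb, and had a PC1 of 1.33 in DKO1 and 1.17 in HCT116. The domains at 58160001 of chromosome 12, 6520001 of chromosome 11 and 149840001 of chromosome 5 also touched B, and that at 65160001 of chromosome 7 was 20 kb from it. Their DKO1 PC1 was 1.08, 1.37, 1.86 and 1.29, so none of these border domains had left A.

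Lost domains were a little shorter than matched domains. Their median length was 240 kb (quartiles 200 and 320), against 280 kb (quartiles 240 and 320) for matched domains, which is 1 step of the 40 kb grid, and the interval of the difference was -40 to 0 kb. The means were 265 ± 72.1 kb and 274 ± 71.3 kb (SD over 452 and 593 domains). Lengths of 200 kb or less were found in 28.1% of lost and 20.7% of matched domains, a difference of 7.36 percentage points (2.12 to 12.7), while lengths of 400 kb or more were equally common, at 7.74% and 7.42%. Of all strong A domains 24.6%, and of all domains 19.8%, were 200 kb or less. On the 40 kb grid both limits of the rule depend on length. With 1 grid step covered, a 200 kb domain reaches 20% and is not lost, while a 240 kb domain has 16.7% and is. A shift by 1 step also takes a larger part of the overlap from a short domain. How far this shaped the difference in length was not tested. Of the strong A domains of 160 kb 50% were lost (37.5 to 62.5, of 58), of those of 200 kb 43.0%, of 240 kb 41.0% and of 280 kb 34.3% (28.6 to 40.5). The share stayed between 34% and 35.7% in longer classes. Among all HCT116 domains the shares showed no such course, with 61.8% at 160 kb, 52.2% at 280 kb and 65.2% from 440 kb upward.

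The longest lost domains kept a positive PC1 in DKO1. At 560 kb there were 3, at 71200001 of chromosome 2, 124280001 of chromosome 9 and 8040001 of chromosome 8. Their PC1 was 1.64, 1.02 and 1.45 in DKO1, against 1.28, 1.17 and 1.16 in HCT116. The domain on chromosome 9, at 124280001 to 124840000, left a hole of exactly its own length between DKO1 domains. A 520 kb domain at 149320001 of chromosome 6 had 0.64 in DKO1, against 1.4 in HCT116. One of 480 kb at 184560001 of chromosome 3 had 1.44 in DKO1 and 1.41 in HCT116.

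Many lost domains had a DKO1 boundary at an end. Of the 904 ends of lost domains, 303 (33.5%) lay within 40 kb of a DKO1 boundary, although the domain itself was not listed. Both ends were found for 69 lost domains (15.3%, 12.2 to 18.9), 1 end for 165 (36.5%) and no end for 218 (48.2%). Both ends were found for 6.21% of all lost HCT116 domains, and at least 1 end for 30.7%, while 234 of the 452 lost strong A domains had at least 1. In weaker A domains that were lost (PC1 of 0 to 1, 820 domains) the share with both ends was 5.85%, and in lost B domains (1016) it was 2.46%. DKO1 domains are denser in A, which these shares do not allow for.

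**Figure D3:**
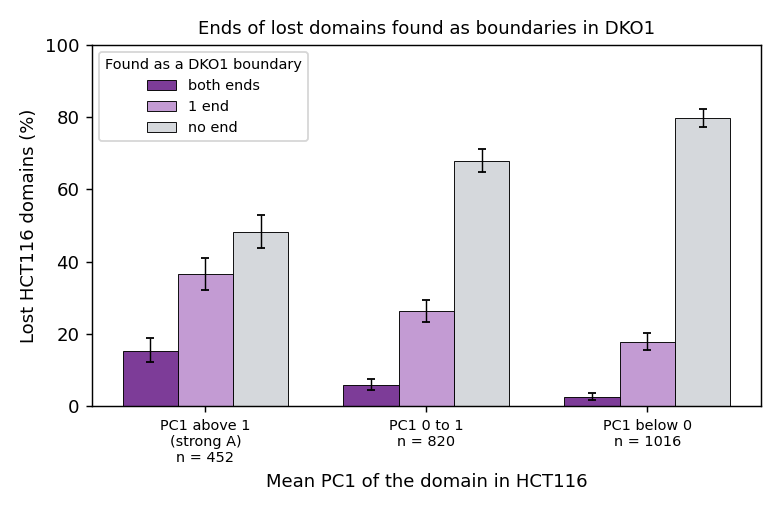
Share of lost HCT116 domains, in percent, of which both ends, 1 end or no end lay within 40 kb of a DKO1 boundary, by mean PC1 of the domain in HCT116, with Wilson 95% intervals as error bars. Strong A domains have both ends found in 15.3%, against 5.85% for PC1 of 0 to 1 and 2.46% below 0.

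An end next to an abutting matched domain is found largely by construction, because the DKO1 partner of that domain ends there. Of the 69 lost domains with both ends found, 54 had a matched domain as the next one on each side, and 67 on at least 1 side, while 103 of all 452 lay between matched domains. For 151 of the 165 with 1 end found, at least 1 neighbour was matched. Among the 411 lost domains with no overlap and with DKO1 domains on either side, the stretch without any DKO1 domain was exactly as long as the lost domain in 44 cases and held no other HCT116 domain in 122. In the other 289 it held at least 2 HCT116 domains. The median stretch was 1240 kb (quartiles 560 and 4420), and 91 were longer than 5 Mb.

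By ends found, the PC1 change of lost domains had overlapping intervals. The median change from HCT116 was 0.057 (0.015 to 0.16) where both ends were found, 0.065 (0.023 to 0.098) where 1 end was found and 0.0074 (-0.047 to 0.036) where none was, and the differences were not tested. Of the 24 falls by more than 0.5 on the deposited scale, 17 were in domains with no end found and the other 7 in those with 1.

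Most lost domains adjoined other HCT116 domains. Another HCT116 domain touched or overlapped 81.4% of lost and 85.2% of matched domains, beside 78.8% of all domains. The interval of the difference was -8.41 to 0.79 percentage points. With a PC1 minimum of 0.8 the difference was -6.72 (-10.6 to -2.87), and with one of 1.2 it was -1.78 (-8.12 to 4.20). With a cover limit of 5% it was -5.30 (-10.2 to -0.59), and with one of 50% it was -3.09 (-7.64 to 1.35). The median number of other HCT116 domains with a centre within 1 Mb was 4 for both. The nearest HCT116 domain was itself lost for 46.9% of lost and 40.6% of matched domains, a difference of 6.26 percentage points (0.20 to 12.3), against 56.5% of all domains. That difference was 14.6 with a cover limit of 5%, 2.78 with one of 50% and 2.82 without overlapping HCT116 domains, and the last pair of intervals include 0. Without chromosome 4 it was 4.03, also with an interval that includes 0. Of the next domains on either side, 47.1% were lost for lost domains and 41.8% for matched domains, against 56.3% for all domains. A lost strong A domain therefore had a matched neighbour about as often as a lost one, with 103 members between matched domains and 112 between lost ones.

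In the order of the HCT116 list, 139 members had no lost domain next to them and 313 (69.2%) had at least 1, of any PC1. Lost domains lay on both sides of 24.8% of members, 19.7% of matched domains and 35.3% of all domains. For the runs below, shares of matched or of all domains are not given here. Counting lost domains of any PC1, 139 members lay in runs of 2 or 3, 131 in runs of 4 to 9 and 43 in runs of 10 or more, up to 20. Counting lost strong A domains alone, so that a lost domain with PC1 of 1 or less ends a run, 258 members stood alone, 65 pairs were consecutive, 16 runs held 3 and 4 runs held 4. The 4 longest of these runs were on chromosomes 3, 4, 11 and 9, and no DKO1 domain overlapped any of them. On chromosome 3 the run spanned 12160001 to 13720000, with a further lost domain outside strong A abutting its start. Its domains had PC1 of 0.92, 1.75, 1.84 and 1.65 in DKO1, against 1.36, 1.73, 1.54 and 1.48 in HCT116. Only the first, which lay 40 kb from B bins of DKO1, was below 1. On chromosome 4, at 152920001 to 154280000, 4 abutting domains had 1.05, 1.45, 1.6 and 1.56 in DKO1, against 1.27, 1.25, 1.22 and 1.26 in HCT116. On chromosome 11, at 10160001 to 11320000, the values were 0.93, 1.56, 1.36 and 0.61 in DKO1, against 1.14, 1.43, 1.33 and 1.02 in HCT116, with the falls at its outer domains. None of the 78, 68 and 58 DKO1 bins of these runs was below 0.

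**Figure D4:**
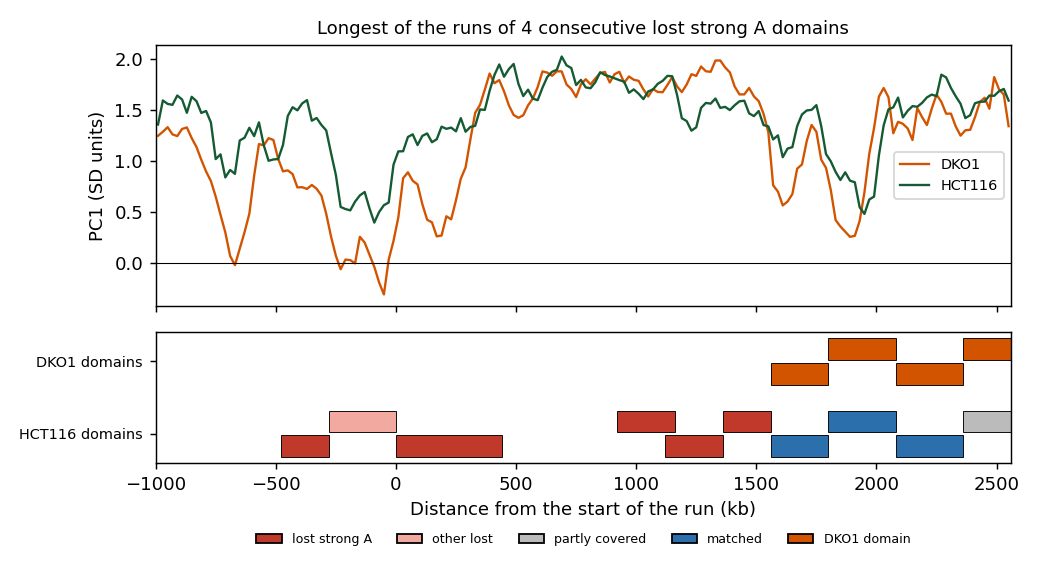
PC1 in SD units (top) and domains (bottom) along the run of 4 lost domains on chromosome 3, by distance in kb from its start, in DKO1 and HCT116. HCT116 domains are coloured by their state in DKO1 and drawn in alternating rows. Between 0 and 1560 kb DKO1 lists no domain, and at 1560 kb the lost domains end and matched domains begin, although PC1 in DKO1 is positive over the whole run.

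Chromosomes differed in how many strong A domains were lost. Among the 20 chromosomes with at least 20 strong A domains, the share was highest on chromosome 21, with 13 of 23 (56.5%, 36.8 to 74.4), chromosome 7, with 23 of 42 (54.8%, 39.9 to 68.8), and chromosome 9, with 22 of 43 (51.2%, 36.8 to 65.4). It was lowest on chromosome 10, with 6 of 39 (15.4%, 7.25 to 29.7), then on chromosomes 17, with 10 of 37 (27.0%), and 11, with 23 of 77 (29.9%). The intervals of chromosome 10 and of chromosomes 7, 9 and 21 do not overlap, although the extremes were picked from 20. On chromosome 10, 67.9% of the other domains were lost, so its domains outside strong A did not share the low value. Strong A domains were lost less often than the other domains of their chromosome on 21 of 22 chromosomes, chromosome 22 being the exception with 50% of 10 against 42.9%.

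**Figure D5:**
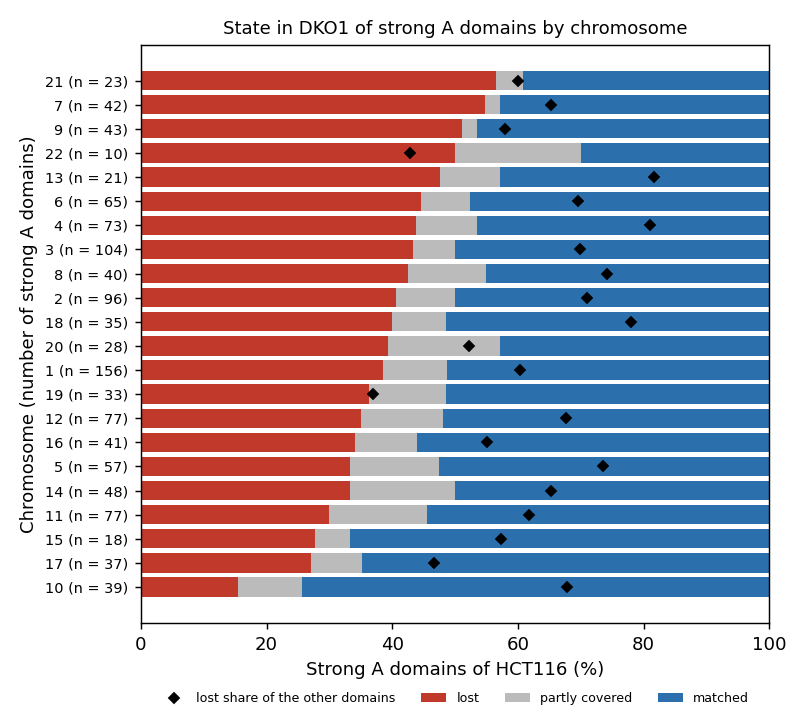
Strong A domains of each autosome, in percent, that were lost, partly covered or matched in DKO1, with the lost share of all other domains of the chromosome as diamonds. Chromosomes are ordered by lost share, from 56.5% on chromosome 21 to 15.4% on chromosome 10.

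Across the 22 chromosomes the lost share of strong A domains had a Spearman rho of 0.19 with that of the other domains and of -0.48 with the correlation of the 2 tracks, given as descriptions since these quantities come from the same maps. Within chromosomes the median DKO1 PC1 was lower in lost than in matched domains on 18 of 22, and the change of PC1 on 17. Differences in DKO1 PC1 lay between -0.42 on chromosome 15, where 5 domains were lost, and 0.031 on chromosome 1. The median distance to B was shorter for lost domains on 15 chromosomes, from -900 kb on chromosome 21 to 660 kb on chromosome 2. Length was shorter on 11, equal on 8 and longer on 3.

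Fewer lost than matched domains lay near chromosome ends. Within 5 Mb of the first or last position lay 33 lost domains (7.30%, 5.25 to 10.1), 78 matched domains (13.2%, 10.7 to 16.1) and 28 of the 118 partly covered domains (23.7%). The difference between lost and matched domains was -5.85 percentage points (-9.46 to -2.13), and the share was lower for lost domains on 15 chromosomes and higher on 5. In the class of HCT116 PC1 from 1 to 1.2 the shares were 7.34% (4.57 to 11.6) of lost and 9.72% (6.62 to 14.1) of matched domains, and the median distances to the end were 26.3 and 27.9 Mb, a difference of -1.59 Mb (-6.66 to 4.76). From 1.2 to 1.4 the shares were 7.69% and 12.7%, from 1.4 to 1.6 they were 7.25% and 18%, and above 1.6 there were 1 of 22 lost and 11 of 49 matched domains. The lower share of lost domains was thus slight in the largest class, where the intervals overlap. Weaker A domains had 60 of 820 lost (7.32%) and 110 of 646 matched domains there, and B domains 5.71% and 12.8%.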

How the data were processed

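Hi-C was measured in 3 DKO1 and 3 HCT116 libraries made with a commercial kit that uses 2 restriction enzymes, per the labels' protocols. Tools named in the submitters' processing notes are HOMER 4.6 and HiC-Pro, with hg19 as the build and no roles given. The domain caller is not given in the sources used here. The deposited PC1 score, per the file headers 1 value per 20 kb bin, is scaled by chromosome. The deposited domain lists hold positions only. Whether the libraries come from separate cultures is not stated, and pooling of each line's libraries is inferred from their shared files.

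Domains were classified as described above. A domain's PC1 is the mean over its bins in each track. Distance to B runs from the domain edge to the nearest bin below 0. Neighbour states follow the same cover and overlap limits without the PC1 minimum. A boundary is a domain start or end. Named domains are the 5 with the largest fall, largest gain, greatest length, and greatest and smallest distance to B, the 3 longest runs (by number of domains), the 3 on each side of each limit, and the 3 chromosomes at each extreme with at least 20 strong A domains. Intervals at 95% are Wilson for shares, order statistics for medians, and a combination of both groups' intervals for differences. The members and measures were chosen with earlier results of these data known. Distance to chromosome ends, flank change, the split by ends found and runs over all lost domains were added later. Gene positions and sequences on hg19 were not used here. Functions were tested on simulated data. Python 3.11.15, numpy 2.4.6, pandas 2.3.3 and scipy 1.17.1 were used.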

Additional observations from a re-analysis of the deposited data

How the results depend on the processing

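No paired analysis was possible because the 3 libraries of each line name 1 common track and 1 common list, taken as pooled, which also prevents leaving out a library. Of 135 alternative values for 10 results, 128 stayed within the interval of the reported value, or within 1.5 times it for counts. Some of these could not have moved, so 128 overstates the stability. The limit of reciprocal overlap does not enter the number lost (452) or the lost share (38.9%), and the cover limit does not enter the number matched (593). Counting cover only by DKO1 domains of 2 Mb or less returned the reported value for all 10 results. A PC1 minimum of 1.2 left 234 lost and 346 matched domains, a lost share of 36.1% and a difference in DKO1 PC1 of -0.0125, and it reversed the ratio of median distances to B, lost over matched, from 0.83 to 1.06. A cover limit of 5% gave a lost share of 35.9%, and a difference of 14.6 percentage points in the share of nearest neighbours that were lost, in place of 6.26. With no overlapping HCT116 domains that difference was 2.82, and with a cover limit of 50% it was 2.78. With strong A chosen on tracks with the chromosome median subtracted, the interval of the difference in DKO1 PC1 came to include 0, and that of the distance ratio 1. With a PC1 minimum of 1.2 the interval of the difference in change also included 0, and with a reciprocal overlap of 70% so did that of the difference in lost nearest neighbours. The interval of the difference in touching neighbours came to exclude 0 with a PC1 minimum of 0.8 or a cover limit of 5%. It also did so without chromosomes 8, 10, 16, 17 and 18. Leaving out 1 chromosome at a time gave differences in DKO1 PC1 from -0.095 to -0.061 and ratios of distance to B from 0.79 to 0.86. A weighted mean over classes of HCT116 PC1, chosen after seeing the data, gave -0.059 for DKO1 PC1. Depth is unknown and limits every statement that a domain was lost.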
